A study of Mus musculus with 6 samples.

Results

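Transcripts of 9 plasma clotting genes were followed in mouse liver: the fibrinogen chains Fga, Fgb and Fgg, the clotting proteases F2, F7 and F9, tissue factor (F3), plasminogen (Plg) and antithrombin (Serpinc1). They were chosen by gene symbol, 9 of the 55385 genes in the deposited table. All 9 passed the filter on low values (a mean FPKM of at least 0.5 over the libraries, met by 11677 genes). FPKM is the deposited level, which scales a count to gene length and to the library total.

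RNA was sequenced from the livers of 6 C57BL/6 mice aged 6 weeks, in 3 groups of 2. Mice lacking the autophagy receptor optineurin (Optn-/-, replicates 4 and 5) and wild-type mice (replicates 1 and 4) were given acetaminophen into the peritoneum at 500 mg/kg. Wild-type controls (replicates 3 and 6) were given 200 µL of saline (PBS), and livers were taken after 6 h in every group. Acetaminophen overdose is widely used in mice to model liver injury by drugs. The labels do not say how the Optn deletion was made or in which cells, no Optn-/- mice without the drug were analysed here, and nothing says how the mice were caged or grouped, so each p-value covers only the spread among the sampled livers.

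Hepatocytes make most of the proteins of blood clotting. Tissue factor on cells outside the vessel starts the cascade with factor VII, factor IX amplifies it, thrombin (from F2) cuts fibrinogen to fibrin, antithrombin inhibits thrombin, and plasmin (from Plg) dissolves the clot. The fibrinogen chains are assembled into a single protein and are acute phase proteins that hepatocytes make in larger amounts when interleukin 6 activates STAT3.

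Libraries held 59143418 to 77292216 counts. Optn had 101 and 118 counts in Optn-/- livers, 2464 and 2661 in wild-type acetaminophen livers and 5090 and 5823 in saline livers, so no library went against its genotype label. The liver label was met by albumin (Alb), at 26265 to 39152 FPKM. Transcripts of other tissues divided the libraries across the groups. Summed over 12 skeletal muscle markers, both wild-type acetaminophen libraries and control replicate 3 held 68.9 to 105 CPM (counts scaled to 1e6 counts a library), and the other 3 held at most 1.01. Summed over 12 intestinal markers, both Optn-/- libraries and control replicate 6 held 43.4 to 71.9 CPM and the others at most 10.1, with Reg3g at 0 in every library. In the wild-type acetaminophen libraries nearly all of that sum was Tff3, at 649 and 676 counts, and no other intestinal marker exceeded 8 counts. Wild-type acetaminophen replicate 4 held 166 CPM of 12 neuronal markers against 12.5 to 20.3 elsewhere. Genotype and these traces cannot be told apart between the treated groups, and only the saline controls were divided between the sets.

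The fibrinogen genes lie side by side on mouse chromosome 3 (GRCm38) within 42140 bases. Fgg (ENSMUSG00000033860, chr3:83007724-83015049) and Fga (ENSMUSG00000028001, chr3:83026076-83033627) are on the plus strand, and Fgb (ENSMUSG00000033831, chr3:83040141-83049863) is on the minus strand. F3 (ENSMUSG00000028128, chr3:121723537-121735048, plus strand) lies farther along the same chromosome. The promoter windows of these 4 genes are shown because they are the members called higher in a comparison with saline livers. The fibrinogen chains were called in both treated groups, and F3 in Optn-/- livers only. Each runs from 250 bases before to 50 after the RefSeq transcript start (GRCm38.p6), read along the gene, and capitals mark the motif matches described below.
Fga: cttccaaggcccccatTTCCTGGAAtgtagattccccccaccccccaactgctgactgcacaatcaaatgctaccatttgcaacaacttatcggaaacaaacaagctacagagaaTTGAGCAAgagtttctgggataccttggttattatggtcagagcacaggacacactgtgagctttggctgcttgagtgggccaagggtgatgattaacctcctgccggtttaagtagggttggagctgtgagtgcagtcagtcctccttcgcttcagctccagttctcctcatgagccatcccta
Fgb: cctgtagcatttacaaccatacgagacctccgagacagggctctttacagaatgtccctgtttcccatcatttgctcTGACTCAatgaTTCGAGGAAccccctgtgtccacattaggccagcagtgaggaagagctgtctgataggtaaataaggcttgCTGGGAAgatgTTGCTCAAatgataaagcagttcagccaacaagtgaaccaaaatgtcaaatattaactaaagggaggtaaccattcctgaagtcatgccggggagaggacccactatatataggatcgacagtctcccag
Fgg: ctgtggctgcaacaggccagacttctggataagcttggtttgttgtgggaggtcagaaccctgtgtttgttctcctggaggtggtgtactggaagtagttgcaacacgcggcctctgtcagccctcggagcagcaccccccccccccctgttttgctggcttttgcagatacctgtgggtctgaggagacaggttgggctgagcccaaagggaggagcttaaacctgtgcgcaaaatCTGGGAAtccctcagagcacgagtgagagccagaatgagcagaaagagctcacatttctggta
F3: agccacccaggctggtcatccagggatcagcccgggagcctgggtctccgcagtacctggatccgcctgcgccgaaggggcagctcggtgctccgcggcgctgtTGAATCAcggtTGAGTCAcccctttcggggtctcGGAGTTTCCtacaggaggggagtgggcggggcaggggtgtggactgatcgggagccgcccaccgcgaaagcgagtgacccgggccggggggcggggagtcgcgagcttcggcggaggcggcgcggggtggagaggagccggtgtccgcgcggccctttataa

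A total of 7 motifs were searched on both strands in the windows of the 8 members with a RefSeq promoter entry. The STAT motif TTCNNNGAA was in the windows of Fga and Fgb (and in that of F9), and in 8.3% of all 32851 promoter windows. The core of the interleukin 6 response element, CTGGGAA, was in the windows of Fgb and Fgg and, in reverse and overlapping the STAT match, in that of F9, against 11.1% of all windows. The C/EBP motif TTGCNNAA was found for Fga, Fgb, F9 and Serpinc1 (10.8% of all windows). The F3 window held 2 matches to the AP-1 motif TGANTCA, starting 146 and 135 bases before the transcript start, and 1 to the NF-kB motif GGANTTTCC (7.81% and 1.25% of all windows). AP-1 also matched in the windows of Fgb and F2. The EGR motif GCGTGGGCG and the HNF4 motif CAAAGTCCA, present in 0.612% and 0.475% of all windows, had no match in the 8 windows, and the F7 window held none of the 7 motifs. Apart from F9, no matches overlapped, and a match is a description of letters, not a site of binding.

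**Figure D1:**
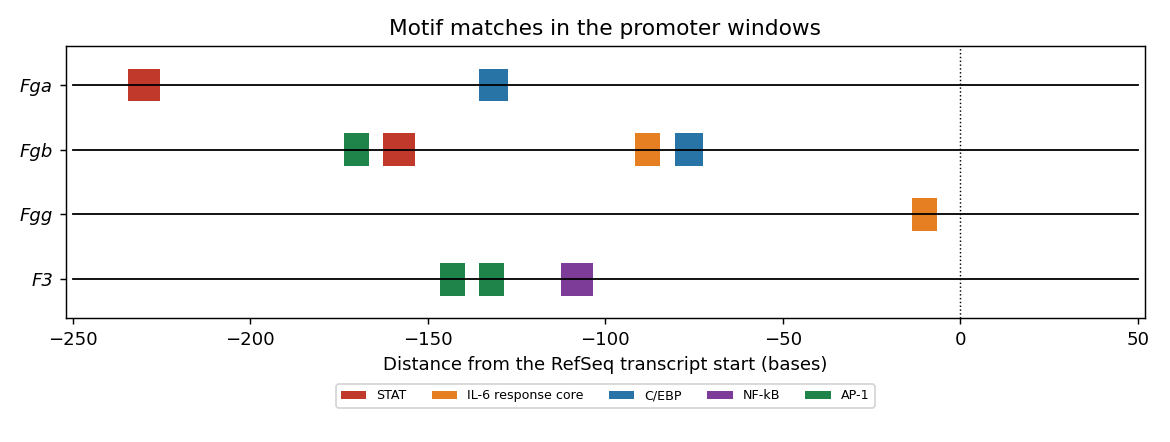
Matches to 5 motifs (coloured boxes) in the promoter windows of Fga, Fgb, Fgg and F3, by distance in bases from the RefSeq transcript start (dotted line at 0). Fgb carries 4 matches, F3 carries 3, Fga carries 2 and Fgg carries 1.

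The first comparison asks what acetaminophen did in wild-type liver. All 3 fibrinogen chains rose together, between 2.68 and 3.05-fold, while no other member was called. Of the 9 members 3 were called higher and 0 lower by edgeR's quasi-likelihood test at an adjusted p under 0.05, where 14.3% of all tested genes were called. The unadjusted p was under 0.05 for 4 members, F3 besides the chains. Over all 11677 tested genes 8.36% were called higher, 5.92% lower and 32.3% had an unadjusted p under 0.05. That is 976 genes higher and 691 lower with scaling by trimmed means (TMM), but 724 higher and 1497 lower with scaling by total count. The members' median log2 fold change was 0.35, against 0.03 over all tested genes. Total count scaling moves that median of all genes to -0.19, and FPKM follows total counts, so ratios of FPKM between treated and saline livers lie below the fitted folds.

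Fgg, the gamma chain, had 3415 and 3623 FPKM in wild-type acetaminophen livers, against 1196 and 1479 FPKM in saline livers. Fga, the alpha chain, had 2808 and 3531 FPKM in the acetaminophen livers, against 1154 and 1569 FPKM in the saline livers. Fgb, the beta chain, had 2192 and 2523 FPKM in the acetaminophen livers, against 844 and 1194 FPKM in the saline livers. For each chain both treated livers lay above both controls, and the control with the higher level was replicate 6 each time. Groups did not overlap in this comparison for 66.5% of all tested genes, in either direction.

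The log2 fold change was 1.61 ± 0.15 for Fgg (SE, edgeR adjusted p = 0.00422), or 3.05-fold with a 95% interval of 2.34 to 3.96. It was 1.43 ± 0.20 for Fga (edgeR adjusted p = 0.0113), or 2.69-fold with an interval of 1.91 to 3.80. It was 1.42 ± 0.20 for Fgb (edgeR adjusted p = 0.0109), or 2.68-fold with an interval of 1.91 to 3.75. Without control replicate 3, Fga did not pass (log2 fold change 1.24, edgeR adjusted p = 0.0546), whereas Fgb and Fgg passed whichever single library was left out. Within the 3 libraries with muscle traces, the log2 CPM of Fga, Fgb and Fgg was higher in the 2 acetaminophen livers than in control replicate 3 by 1.44, 1.46 and 1.54. In bulk tissue, a change in the number of hepatocytes and a change in RNA per hepatocyte cannot be told apart. The summed level of 9 hepatocyte markers was 143128 and 139919 CPM in acetaminophen livers and 123962 and 128254 CPM in saline livers.

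Together the chains took 25957 and 30186 CPM in wild-type acetaminophen livers, and 10058 and 13498.5 CPM in saline livers. The chains kept similar proportions. Per unit of length, the ratio of Fga to Fgb was 1.34 ± 0.084 in acetaminophen livers and 1.34 ± 0.038 in saline livers (SD of FPKM ratios, n = 2 each). The ratio of Fgg to Fgb was 1.497 ± 0.086 in acetaminophen livers and 1.33 ± 0.13 in saline livers (1.56 and 1.44 in acetaminophen livers, 1.42 and 1.24 in saline livers). No test was made of these ratios.

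**Figure D2:**
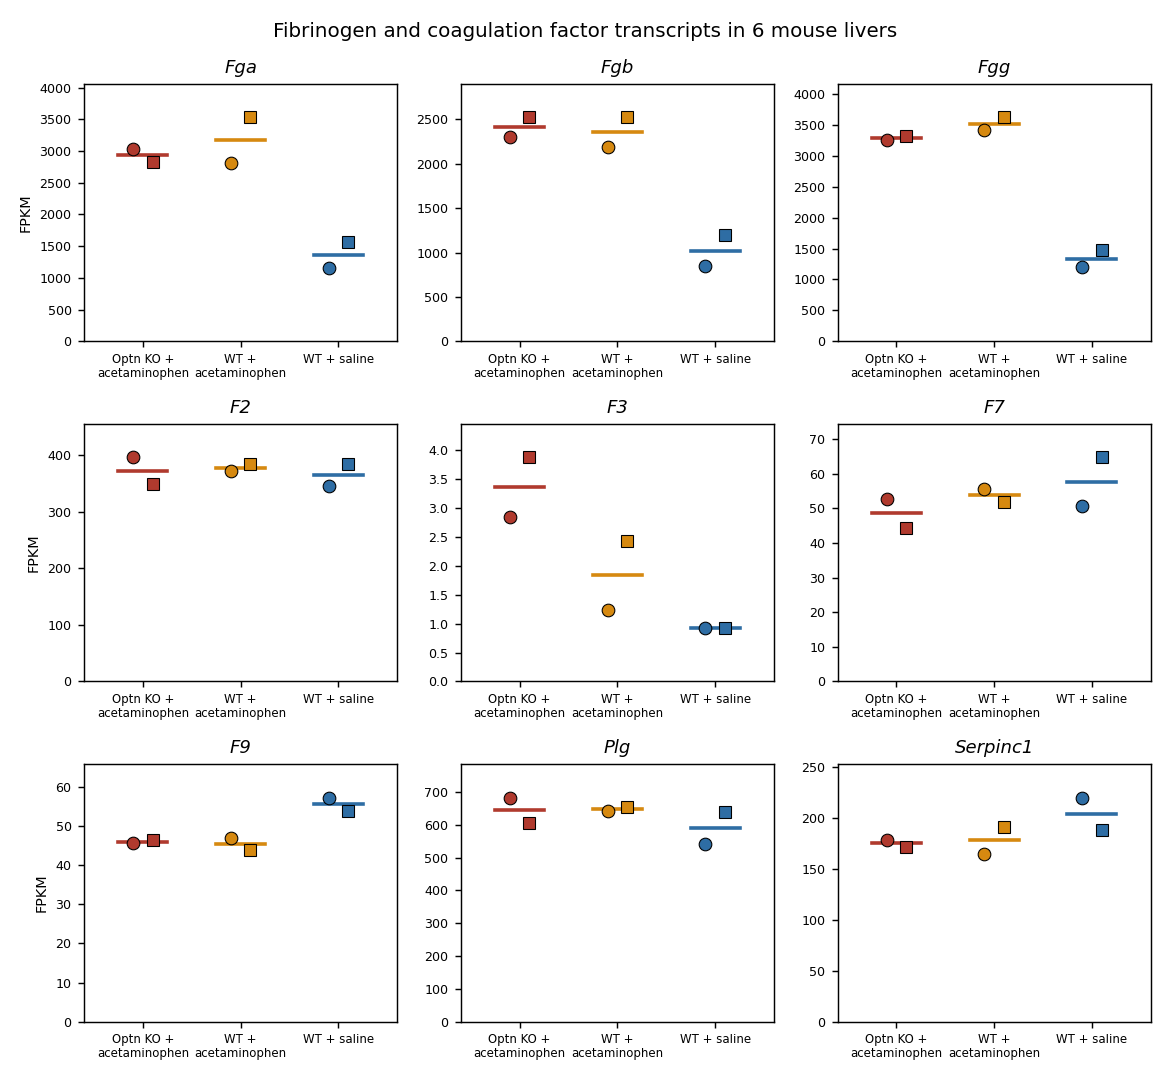
FPKM of the 9 members in each library (points, circle for the lower and square for the higher replicate number) with the mean of each group of 2 mice (horizontal lines), each panel on its own linear scale from 0. Fga, Fgb and Fgg lie above both saline livers in all 4 acetaminophen livers, F3 is highest in the Optn-/- livers, and the other 5 members lie close together.

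The clotting proteases were not called. F2, prothrombin (ENSMUSG00000027249, chr2:91625320-91636414), had 371 and 384 FPKM in wild-type acetaminophen livers, against 346 and 383 FPKM in saline livers. F7 (ENSMUSG00000031443, chr8:13026034-13035809) had 55.6 and 51.9 FPKM in the acetaminophen livers, against 50.7 and 64.7 FPKM in the saline livers. For both genes the groups overlapped. F9 (ENSMUSG00000031138, chrX:59999464-60030759) had 46.9 and 43.8 FPKM in the acetaminophen livers, against 57.3 and 53.7 FPKM in the saline livers. Here both treated livers lay below both controls in FPKM, where 66.5% of all tested genes had groups that did not overlap in CPM. The log2 fold changes were 0.26 ± 0.14 for F2, 0.11 ± 0.17 for F7 and -0.08 ± 0.12 for F9 (SE, edgeR adjusted p = 0.261, 0.708 and 0.701). With total count scaling the value for F9 was -0.30 (edgeR adjusted p = 0.112) and that for F7 turned to -0.11. The 95% intervals of these 3 folds ran from 0.767 at the lowest to 1.52 at the highest. Changes within these bounds are not excluded, and the bounds are not a limit of detection.

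Plasminogen and antithrombin were not called either. Plg (ENSMUSG00000059481, chr17:12378608-12419385) had 643 and 655 FPKM in wild-type acetaminophen livers, against 541 and 638 FPKM in saline livers. Its log2 fold change was 0.35 ± 0.15 (SE, edgeR adjusted p = 0.17), a 1.28-fold difference with an interval of 0.989 to 1.65. Serpinc1 (ENSMUSG00000026715, chr1:160978585-161002463) had 164 and 192 FPKM in the acetaminophen livers, against 220.2 and 188 FPKM in the saline livers. The groups overlapped, and the log2 fold change was 0.01 ± 0.15 (SE, edgeR adjusted p = 0.974), or -0.21 with total count scaling.

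Tissue factor, the receptor that starts clotting, was the least abundant member. F3 had 1.24 and 2.42 FPKM in wild-type acetaminophen livers (225 and 474 counts), against 0.917 and 0.921 FPKM in saline livers (151 and 193 counts). Both treated livers lay above the controls, where 66.5% of all tested genes had groups that did not overlap in this comparison. For F3 the treated livers differed from each other by more than the controls did. Its log2 fold change of 1.20 ± 0.35 did not pass (SE, edgeR adjusted p = 0.0754). DESeq2 called it (1.19, adjusted p = 0.0162), as did edgeR without wild-type acetaminophen replicate 1 (1.58, adjusted p = 0.0416). Without replicate 4, the library with neuronal transcripts, the value was 0.67. Tissue factor is also made in brain and by the gut lining. The saline liver with intestinal traces (replicate 6) had 0.921 FPKM of F3 and the other saline liver had 0.917, with 1 liver on each side. The part of the neuronal or intestinal traces in the level of F3 was not tested.

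**Figure D3:**
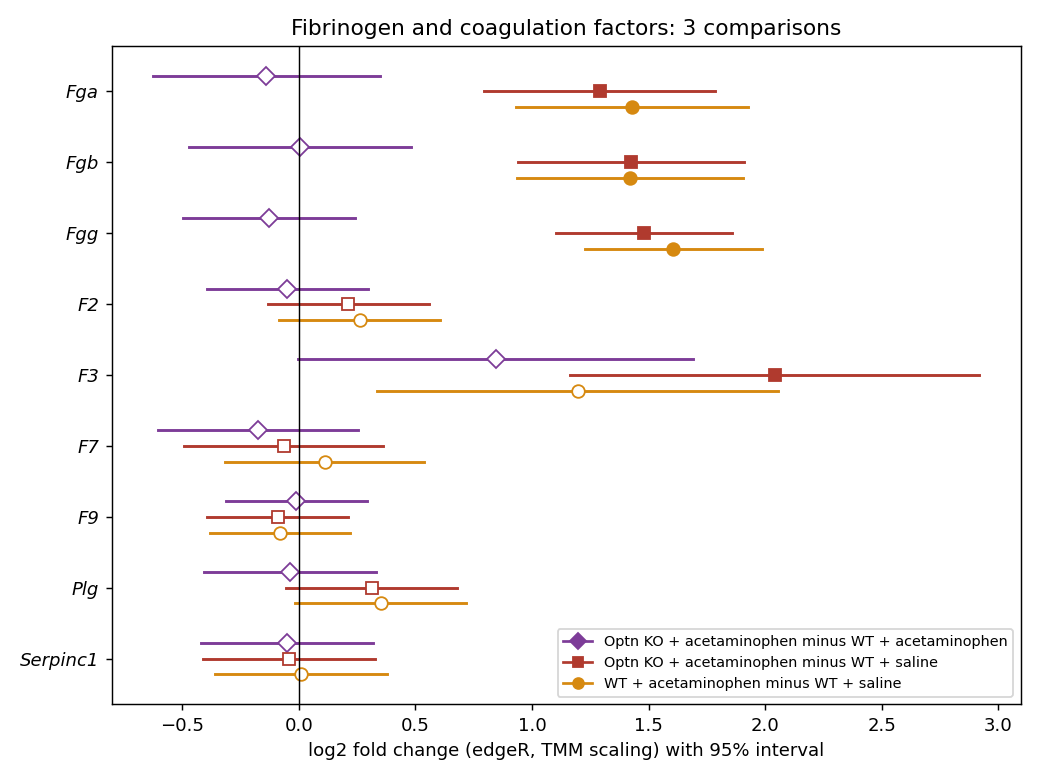
Fitted log2 fold change (edgeR, TMM scaling) of the 9 members with 95% intervals in 3 comparisons, filled where the adjusted p was under 0.05. The fibrinogen chains are filled at 1.29 to 1.61 in both comparisons with saline livers, F3 is filled at 2.04 for Optn-/- livers against saline livers, and the comparison between genotypes has no filled point.

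The second comparison asks whether loss of Optn altered these transcripts after acetaminophen. No member was called between the genotypes: 0 of 9 were called by edgeR, 0 had an unadjusted p under 0.05, and DESeq2 called 0 as well. Over all tested genes 0.103% were called by edgeR and 8.77% had an unadjusted p under 0.05. The members' median log2 fold change was -0.05, against -0.00058 over all tested genes.

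Fgg had 3255 and 3319.6 FPKM in Optn-/- livers, against 3415 and 3623 FPKM in wild-type livers, all after acetaminophen. Fga had 3034 and 2824 FPKM in Optn-/- livers, against 2808 and 3531 FPKM in wild-type livers. Fgb had 2301 and 2522 FPKM in Optn-/- livers, against 2192 and 2523 FPKM in wild-type livers. Fga and Fgb overlapped between the genotypes, and Fgg was lower in both Optn-/- livers, where 39.0% of all tested genes had groups that did not overlap in this comparison. The log2 fold changes were -0.13 ± 0.15 for Fgg, -0.14 ± 0.20 for Fga and 0.0038 ± 0.19 for Fgb (SE, edgeR adjusted p = 0.849, 0.874 and 0.997). With the trace set as a term they were -0.40 for Fgg, -0.55 for Fga and -0.47 for Fgb, and none passed. The trace term is estimated from the 2 saline livers alone, so these values do not separate genotype from the traces. The 95% intervals of the 3 folds ran from 0.648 to 1.40. With 2 mice in each group, differences within those bounds are not excluded, and the bounds are not a limit of detection. A 4.16-fold difference in Thbs1, described below, was not called in this comparison (edgeR adjusted p = 0.22). The hepatocyte markers summed to 101171 and 132682 CPM in Optn-/- livers, against 143128 and 139919 CPM in wild-type livers. The ratio of Fga to Fgb was 1.22 ± 0.14 in Optn-/- livers and 1.34 ± 0.084 in wild-type livers, and that of Fgg to Fgb was 1.37 ± 0.070 in Optn-/- livers and 1.497 ± 0.086 in wild-type livers (SD, n = 2 each).

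The other plasma factors lay close together after acetaminophen. F2 had 396 and 348 FPKM in Optn-/- livers, against 371 and 384 FPKM in wild-type livers, and F7 had 52.8 and 44.3 FPKM in Optn-/- livers, against 55.6 and 51.9 FPKM in wild-type livers. F9 had 45.5 and 46.5 FPKM in Optn-/- livers, against 46.9 and 43.8 FPKM in wild-type livers. Plg had 683 and 606 FPKM in Optn-/- livers, against 643 and 655 FPKM in wild-type livers, and Serpinc1 had 178 and 172 FPKM in Optn-/- livers, against 164 and 192 FPKM in wild-type livers. All 5 overlapped between genotypes, with log2 fold changes between -0.18 and -0.01 and edgeR adjusted p of 0.811 or more.

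F3 had the largest fitted difference of the 9. It had 2.84 and 3.87 FPKM in Optn-/- livers (605 and 665 counts), against 1.24 and 2.42 FPKM in wild-type livers. Both Optn-/- livers lay above both wild-type livers, where 39.0% of all tested genes had groups that did not overlap in this comparison. The log2 fold change of 0.84 ± 0.34 did not pass (SE, unadjusted p = 0.0504, edgeR adjusted p = 0.568), and its 95% interval ran from 0.999 to 3.23-fold. It was 1.37 without wild-type replicate 4 and 0.46 without wild-type replicate 1. Intestinal markers moved with F3, at 56 and 71.9 CPM in Optn-/- livers, against 10.1 and 9.57 CPM in wild-type livers. Nearly all of the wild-type sum was Tff3. Genotype and these traces cannot be told apart here.

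The third comparison sets treated Optn-/- livers against saline wild-type livers, which differ in genotype and in treatment, and it shares the saline livers with the first. Here 4 of 9 members were called higher, the 3 fibrinogen chains and F3, and 0 lower, where 12.2% of all tested genes were called higher and 8.05% lower. The log2 fold changes were 1.48 ± 0.15 for Fgg, 1.29 ± 0.20 for Fga and 1.42 ± 0.20 for Fgb (SE, edgeR adjusted p = 0.00369, 0.0108 and 0.00765). Without control replicate 3 Fga did not pass (1.10, edgeR adjusted p = 0.051), nor with the trace set as a term (0.0513). Within the 3 libraries with intestinal traces, log2 CPM of Fga, Fgb and Fgg was higher in the 2 Optn-/- livers than in control replicate 6 by 0.894, 1.006 and 1.146.

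F3 rose 4.11-fold in Optn-/- livers over saline livers, with an interval of 2.24 to 7.56 (log2 fold change 2.04 ± 0.36 SE, edgeR adjusted p = 0.0149). The call was lost without control replicate 3 (2.06, edgeR adjusted p = 0.0753), control replicate 6 (2.03, 0.0676) or Optn-/- replicate 5 (1.81, 0.0889), and with the trace set as a term (2.06, 0.0756). For F3, as for Fga, the trace set term and leaving out control replicate 3 gave the same fitted value, so they are not separate checks. Within the libraries with intestinal traces the log2 CPM of F3 was 1.84 higher in Optn-/- livers than in control replicate 6. In CPM, which follows total counts, F9 and Serpinc1 lay lower in both Optn-/- livers than in both saline livers. In this comparison 69.0% of all tested genes did not overlap in CPM. With TMM scaling the fitted log2 fold changes were -0.09 for F9 and -0.04 for Serpinc1. That of Serpinc1 turned to 0.0923 without control replicate 3. The 5 remaining members had log2 fold changes of -0.09 to 0.31 and edgeR adjusted p of 0.193 or more.

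Ordered by FPKM, the members kept nearly the same ranking in all groups. In Optn-/- livers the order was Fgg, Fga, Fgb, Plg, F2, Serpinc1, F7, F9 and F3. In wild-type acetaminophen livers it was the same, and in saline livers Fga stood above Fgg. Fgg and Fga overlapped in both wild-type groups, and Fga and Fgb overlapped in saline livers. F7 and F9 overlapped in Optn-/- and saline livers, so the order of these neighbours is not beyond their spread across libraries. Within each library Fga stood above Fgb, at FPKM ratios of 1.12 to 1.40.

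The other genes of clotting were taken as 3 lists of 36 genes, of which 30 passed the filter. In wild-type acetaminophen livers against saline livers, 7 rose and 2 fell, with a median log2 fold change of 0.15, where 8.36% of all tested genes were called higher and 5.92% lower. The lower count is near that share. Among those that rose were F13a1, Thbd, Procr, Thbs1, S100a10 and Serpinf2, and those that fell were Lman1 and Mcfd2.

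Of 13 tested clotting factors and genes of their maturation, 1 rose and 2 fell in wild-type acetaminophen livers (median log2 fold change 0.04), a higher count near the 8.36% of all tested genes. F13a1, the transglutaminase subunit that crosslinks fibrin and is made by monocytes and platelet precursors, had 0.481 and 0.436 FPKM in acetaminophen livers, against 0.0086 and 0.02 FPKM in saline livers, where only 4 and 12 counts stood behind it. It rose by 5.06 ± 0.56 on the log2 scale (SE, edgeR adjusted p = 0.00611), and limma on log2(FPKM + 0.5), where such low values weigh little, did not call it (0.90, adjusted p = 0.0784). The partners Lman1 and Mcfd2, which carry factors V and VIII out of the endoplasmic reticulum, both fell. Lman1 had 9.91 and 10.9 FPKM in acetaminophen livers, against 21.7 and 23.8 FPKM in saline livers (log2 fold change -0.92 ± 0.14 SE, edgeR adjusted p = 0.015). Mcfd2 had 32.4 and 36.5 FPKM in acetaminophen livers, against 56.1 and 62.4 FPKM in saline livers (-0.57 ± 0.12, edgeR adjusted p = 0.0307). Leaving out any of the 4 wild-type libraries, these 2 calls were lost, with adjusted p of 0.0529 to 0.0697 for Lman1 and 0.0797 to 0.134 for Mcfd2. For the plasma kininogen gene Kng2 the fitted change was 0.42 ± 0.14 on the log2 scale (SE, edgeR adjusted p = 0.104), and DESeq2 called it (0.41, adjusted p = 0.0355).

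Of 10 tested anticoagulants, 2 rose and 0 fell (median log2 fold change 0.08), beside 8.36% and 5.92% of all tested genes. Thbd, thrombomodulin, which turns thrombin towards activation of protein C, had 2.67 and 2.66 FPKM in wild-type acetaminophen livers, against 0.351 and 0.641 FPKM in saline livers. Procr, the endothelial protein C receptor, had 1.43 and 1.02 FPKM in acetaminophen livers, against 0.143 and 0.31 FPKM in saline livers. They rose by 2.63 ± 0.30 and 2.62 ± 0.46 on the log2 scale (SE, edgeR adjusted p = 0.00633 and 0.0192), and Procr did not pass without control replicate 3 (2.19, 0.0657) or wild-type acetaminophen replicate 1 (2.33, 0.0657). Pros1, protein S, and Proz, protein Z, had log2 fold changes of 0.35 ± 0.14 and -0.26 ± 0.12 (SE, edgeR adjusted p = 0.138 and 0.196), and Proz passed as lower with total count scaling (-0.48, 0.0342). The summed level of 8 sinusoidal endothelial markers was 205 and 183 CPM in Optn-/- livers, 139 and 141 CPM in wild-type acetaminophen livers and 133 and 229 CPM in saline livers, and its part in the levels of Thbd and Procr was not tested.

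Of 7 tested genes of fibrinolysis, 4 rose and 0 fell (median log2 fold change 1.11), beside the same shares of all tested genes. Thbs1, thrombospondin 1, had 1.29 and 1.63 FPKM in wild-type acetaminophen livers, against 0.0955 and 0.156 FPKM in saline livers. It rose by 3.72 ± 0.37 on the log2 scale (SE, edgeR adjusted p = 0.00455), a larger fold than the fibrinogen chains at far lower levels. S100a10, a subunit of the annexin A2 complex that binds plasminogen at cell surfaces, rose by 1.11 ± 0.19, and Serpinf2, the plasmin inhibitor of hepatocytes, rose by 0.77 ± 0.16 (edgeR adjusted p = 0.0186 and 0.0315). Serpinf2 did not pass in 11 of 16 alternatives, among them total count scaling (0.54, adjusted p = 0.0517) and leaving out any library, and S100a10 did not pass without either control or without wild-type acetaminophen replicate 1 (adjusted p of 0.0598 to 0.0881).

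Markers of blood cells moved with these genes. The sum of 8 platelet markers was 24.4 and 26.6 CPM in Optn-/- livers, 19.1 and 12.4 CPM in wild-type acetaminophen livers and 4.24 and 3.97 CPM in saline livers. The sum of 8 markers of infiltrating monocytes was 220.1 and 175 CPM in Optn-/- livers, 116 and 66.5 CPM in wild-type acetaminophen livers and 3.06 and 5.21 CPM in saline livers. Summed over 8 neutrophil markers, Optn-/- livers held 157 and 205 CPM, wild-type acetaminophen livers 151 and 72.6 CPM and saline livers 2.25 and 5.95 CPM. Summed over 6 red cell markers, Optn-/- livers held 8459.7 and 8927 CPM, wild-type acetaminophen livers 9383 and 3962 CPM and saline livers 699.8 and 1110.1 CPM. Of 8 neutrophil markers 6 rose in wild-type acetaminophen livers against saline livers, as did all 5 red cell markers that passed the filter. Over all tested genes 8.36% were called higher in this comparison. Of the platelet markers 4 passed the filter and 3 rose in wild-type acetaminophen livers against saline livers. Of the monocyte markers 4 passed and all 4 rose, Cd14 made up most of the sum, and Fcnb was at 0 in every library. Their part in the rises of F13a1, Thbs1 and F3 was not tested.

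Between genotypes after acetaminophen, 0 of the 30 genes were called, 6 had an unadjusted p under 0.05 (8.77% of all tested genes did), and DESeq2 called 1, Thbs1, where it called 169 of all tested genes higher and 122 lower. Thbs1 had 4.49 and 7.90 FPKM in Optn-/- livers, against 1.29 and 1.63 FPKM in wild-type livers (log2 fold change 2.05 ± 0.33 SE, edgeR adjusted p = 0.22). It was called with DESeq2 (2.06, adjusted p = 2.11e-06) and by edgeR with no filter on low values (adjusted p = 0.0263), and missed the threshold in the other alternatives. Thbd had 4.51 and 4.76 FPKM in Optn-/- livers, against 2.67 and 2.66 FPKM in wild-type livers (0.77 ± 0.28, edgeR adjusted p = 0.524). Procr had 2.99 and 2.62 FPKM in Optn-/- livers, against 1.43 and 1.02 FPKM in wild-type livers (1.16 ± 0.42, edgeR adjusted p = 0.527). With the trace set as a term the fitted value of Thbd turned to -0.0635, that of Procr was 0.069 and that of Thbs1 was 1.39. That term rests on the 2 saline livers alone, so these values do not separate genotype from the traces. For each of these 3 genes both Optn-/- livers lay above both wild-type livers, and over the 30 genes 10 were higher and 4 lower without overlap, where 39.0% of all tested genes did so in either direction. The endothelial sum was also higher in both Optn-/- livers than in both wild-type acetaminophen livers, as was the sum of 8 stellate cell and fibroblast markers, at 441 and 512 CPM in Optn-/- livers, against 325 and 248 CPM in wild-type livers. Their part in these differences was not tested.

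Against saline livers, 8 of the 30 genes rose and 2 fell in Optn-/- livers. The shares over all tested genes were 12.2% higher and 8.05% lower. The 2 that fell were Lman1 and Mcfd2, at -0.89 and -0.62 on the log2 scale (edgeR adjusted p = 0.0118 and 0.0192). Lman1 did not pass without either control or without Optn-/- replicate 5 (0.0501 to 0.0562). Mcfd2 did not pass without either control or either Optn-/- replicate, nor with the trace set as a term (0.0592 to 0.0942). Fibrinolysis had 5 of 7 higher, among them Thbs1 and S100a10 with Plaur, the urokinase receptor, and Anxa2, both named after their values were seen (log2 fold changes of 4.27 and 1.41, edgeR adjusted p = 0.0304 and 0.0177). Plaur did not pass without either Optn-/- replicate (0.0794 and 0.129), nor Anxa2 without control replicate 3 or Optn-/- replicate 5 (0.0908 and 0.0918). Serpinf2 had 366 and 337 FPKM in Optn-/- livers, against 263 and 306 FPKM in saline livers, and was not called (0.49 ± 0.16 SE, edgeR adjusted p = 0.0861), while DESeq2 called it (0.48, adjusted p = 0.0215).

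**Figure D4:**
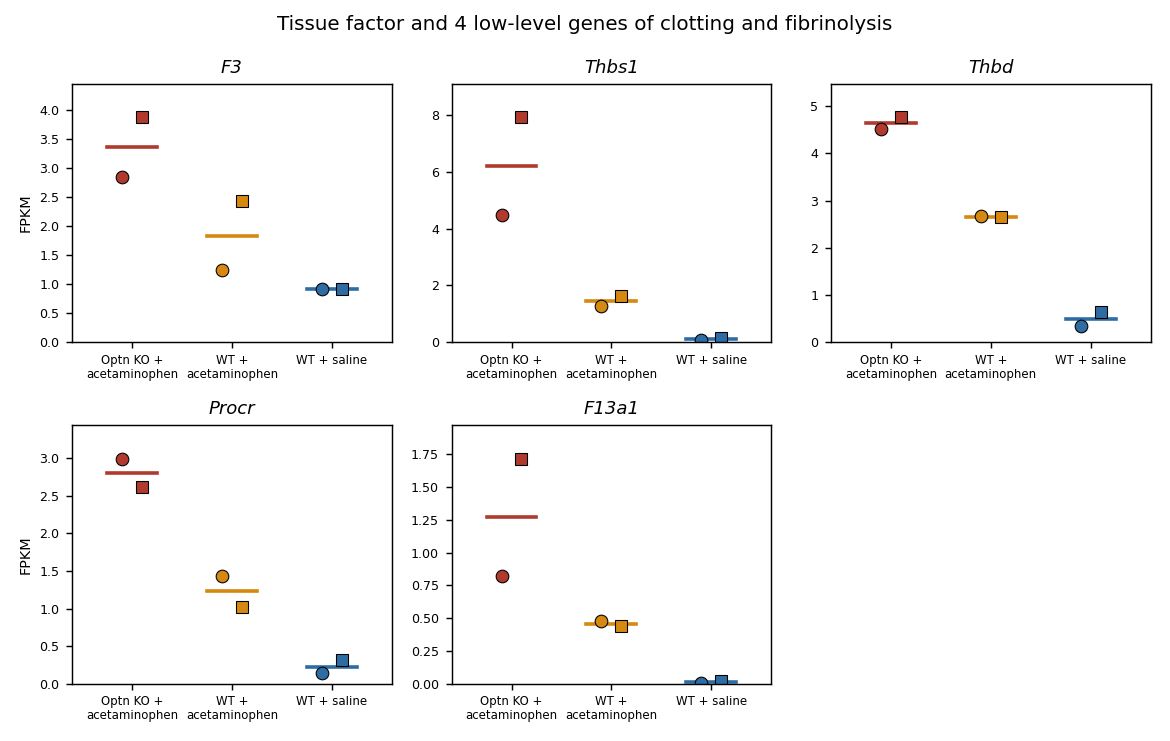
FPKM of tissue factor (F3) and of Thbs1, Thbd, Procr and F13a1 in each library (circle for the lower, square for the higher replicate number) with group means of 2 mice (horizontal lines), on linear scales from 0. In each panel the Optn-/- livers lie above the wild-type acetaminophen livers and these above the saline livers, and no difference between the treated genotypes passed edgeR's test with the filter on low values.

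Regulators of fibrinogen transcription, genes of interleukin 6 signalling and hepatocyte transcription, were taken as a further list. The list also counts the fibrinogen-like gene Fgl1, which is not such a regulator and was not called. Of the 12 genes, 6 rose and 1 fell in wild-type acetaminophen livers against saline livers (median log2 fold change 0.57). Over all tested genes 8.36% were called higher and 5.92% lower. Stat3 had 16.5 and 19.4 FPKM in acetaminophen livers, against 7.26 and 10.1 FPKM in saline livers, and Socs3, its feedback inhibitor, had 21.01 and 26.7 FPKM in acetaminophen livers, against 1.92 and 5.44 FPKM in saline livers. They rose by 1.25 ± 0.19 and 2.90 ± 0.47 on the log2 scale (SE, edgeR adjusted p = 0.0139 and 0.0157). Cebpd, a C/EBP factor of the acute phase, rose by 2.07 ± 0.17 on the log2 scale (SE, edgeR adjusted p = 0.00295). Stat3 did not pass without control replicate 3 (1.04, adjusted p = 0.0625) or wild-type acetaminophen replicate 4 (1.16, 0.0502). Between genotypes after acetaminophen, Stat3, Socs3 and Cebpd had log2 fold changes of 0.01, 0.33 and 0.30 (edgeR adjusted p of 0.65 or more). With the trace set as a term Stat3 and Socs3 were at -0.44 and -1.14. These 2 values carry the difference between the 2 saline livers and do not separate genotype from the traces.

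**Figure D5:**
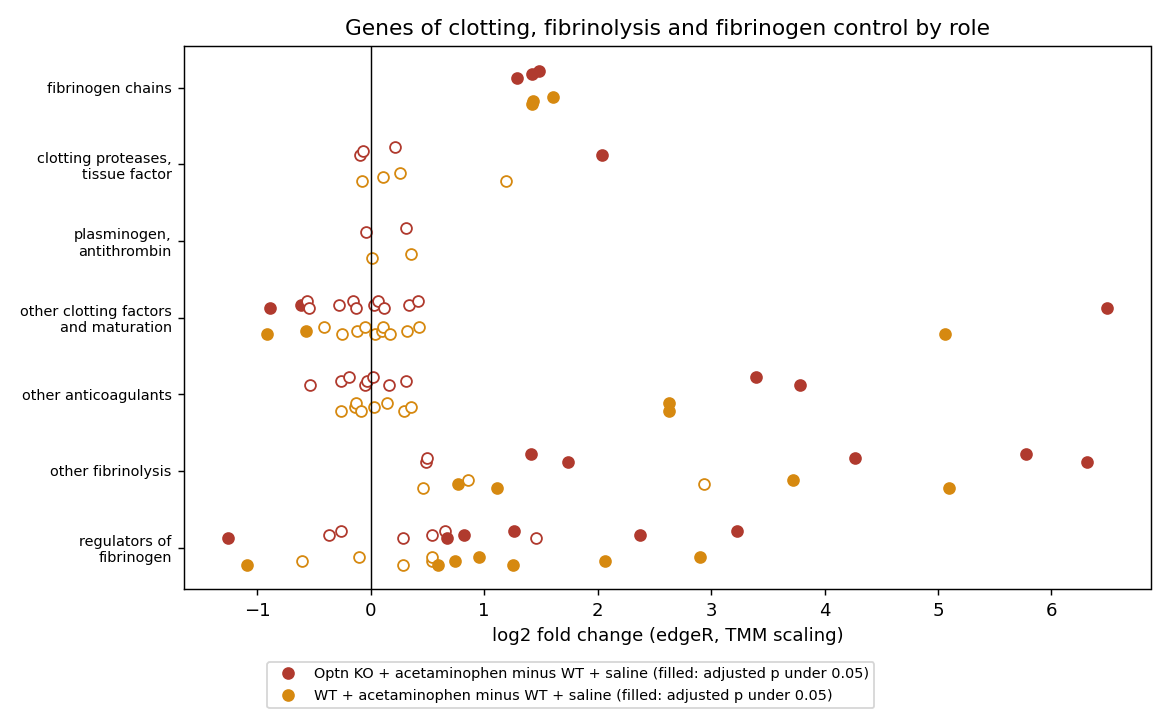
Fitted log2 fold change of each tested gene by role, for Optn-/- acetaminophen livers (red, upper row) and wild-type acetaminophen livers (orange, lower row) against the same 2 saline livers, filled where the edgeR adjusted p was under 0.05. The fibrinogen chains lie together at 1.29 to 1.61, most clotting factors and anticoagulants lie near 0, and the points beyond 2 are low-level genes and regulators.

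No tested gene beside the fibrinogen and F7 loci was called higher in wild-type acetaminophen livers. Plrg1, a splicing factor gene that lies 5658 bases beyond Fgb, had 5.44 and 7.08 FPKM in wild-type acetaminophen livers, against 5.603 and 5.99 FPKM in saline livers (log2 fold change 0.32 ± 0.19 SE, edgeR adjusted p = 0.3). Lrat, on the other side of the locus and a gene of stellate cells, fell by 2.02 on the log2 scale (SE 0.25, edgeR adjusted p = 0.0087), with 0.329 and 0.28 FPKM in acetaminophen livers, against 1.46 and 1.41 FPKM in saline livers. Of the 8 stellate cell and fibroblast markers, which include Lrat, 7 had positive log2 fold changes in this comparison and 0 were called higher. The sum of the 8 was 325 and 248 CPM in wild-type acetaminophen livers, against 183 and 247 CPM in saline livers. Of 8 listed neighbours 4 passed the filter, and Lrat alone was called. Pcid2 and Cul4a, near F7, had log2 fold changes of 0.47 ± 0.23 and -0.25 ± 0.29 (edgeR adjusted p = 0.222 and 0.61). F10 follows F7 after 1498 bases, and F10 was not called in any of the 3 comparisons (log2 fold changes of -0.04 to 0.10, or about -0.12 against saline livers with total count scaling).

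Across the 6 libraries, the genes whose log2 CPM followed the mean of the fibrinogen chains most closely, of 2586 with a mean FPKM of at least 10, were the nuclear RNA Malat1, Midn, the interleukin 1 receptor gene Il1r1, Csrnp1 and Ddx28 (Pearson r of 0.991 to 0.996). Il1r1 had 34.2 and 48.1 FPKM in Optn-/- livers, 38.9 and 48.5 FPKM in wild-type acetaminophen livers and 3.87 and 6.46 FPKM in saline livers. For F3 they were Rraga, Pabpc1, Plin5, Kdelr2 and Baiap2l1 (r of 0.966 to 0.985), and Kdelr2 had 83.3 and 84.8 FPKM in Optn-/- livers, 62.7 and 74.3 FPKM in wild-type acetaminophen livers and 47.3 and 51.002 FPKM in saline livers. These values describe likeness over 6 libraries that differ mainly between treated and saline mice, and they carry no test.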

How the data were processed

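Poly(A) RNA of 6 livers was sequenced, and the deposited table gives a whole-number count and an FPKM value per gene and library, per the file headers. Counts were deposited without normalization, and FPKM was scaled by the authors to gene length and library total. The submitters' processing notes name Bowtie 0.12.2 and mm8. Which counter was used and whether it read strand is not given in the sources used here. In the table, the coordinates of 8 of the 9 members equal those of a GRCm38 annotation, so coordinates are given as GRCm38.

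Counts were tested with edgeR 4.0.16 (R 4.3.3, quasi-likelihood test, TMM scaling, 3 group means, a minimum of 0.5 on the mean FPKM). P-values were adjusted over 11677 genes by Benjamini-Hochberg, with 0.05 as threshold, and the code was tested on simulated data. The fit kept 3 residual degrees of freedom, at a common biological coefficient of variation of 0.277. With 2 against 2 mice the smallest two-sided p of an exact permutation test is 0.333, and none was run. Standard errors come from the log2 fold change and its F value, and intervals are 95%. Libraries held 59143418 to 77292216 counts, and 3 counts correspond to 0.0388 to 0.0507 CPM. Total counts limit the low genes most.

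Alternatives were DESeq2 1.42.0, limma 3.58.1 on log2(FPKM + 0.5), with 0.1 or 1 in its place, other scalings and filters, only the 2 groups compared, a term for muscle or intestinal traces, and leaving out each library. The trace term is estimated from the difference between the 2 saline livers alone. Between genotypes it shifts each value by that difference and does not separate genotype from the traces. Against saline livers it gives nearly the values found without the control of the other trace set, so the 2 are not separate checks. The members and lists were chosen with earlier results of these data known. Named genes are the members and, per list, up to 4 genes with the smallest edgeR p between wild-type acetaminophen and saline livers, plus any called between genotypes (there was none), Optn, and marker sums that move with a result. Some genes of the lists count in the totals but are not reported here. Likeness used Pearson r on log2(CPM + 0.5) over genes whose mean FPKM reached 10, naming 5 genes for each pattern. Promoter windows are from RefSeq, and all 36 genes of the wider lists matched by symbol.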

Additional observations from a re-analysis of the deposited data

How the results depend on the processing

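No paired analysis was made, because the labels do not pair mice of different groups. Of 1144 gene values under the alternatives, 1015 kept their direction and side of the threshold, 62 no longer passed, 10 newly passed and 57 turned in sign, all 57 among uncalled differences. The causes were not tested. In wild-type acetaminophen against saline livers, 7 genes of the wider lists were higher, against 3 with a mean FPKM of at least 5 (fewer genes tested) and 4 to 6 leaving out single libraries. The 2 lower genes became 0 with the trace set as a term and 0 to 2 leaving out single libraries. Between genotypes the wider lists had 0 higher, against 1 with DESeq2 and 1 with no filter (Thbs1). In Optn-/- against saline livers 4 members were higher, against 2 with the trace set as a term and 2 to 4 leaving out single libraries.

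Log2 fold changes that turned in sign were as follows. In wild-type acetaminophen against saline livers, F7 was -0.0918, -0.0924 and -0.0911 with limma at pseudocounts of 0.5, 0.1 and 1, -0.11 with total count scaling, and -0.0417 to 0.28 leaving out single libraries. Serpinc1 was -0.00366 with DESeq2, -0.00367 with RLE, -0.20 with limma at each pseudocount, -0.21 with total counts, -0.0467 with no filter, -0.0086 with only the 2 groups, -0.11 with the trace set and -0.11 to 0.14 leaving out single libraries. Between genotypes, Fgb was -0.0033 with only the 2 groups, -0.47 with the trace set and -0.0656 to 0.0766 leaving out single libraries. F9 was 0.0213, 0.0215 and 0.0211 with limma in the same order, 0.0243 with total counts, 0.0313 with a mean FPKM of at least 5, 0.11 with the trace set and -0.0888 to 0.0727 leaving out single libraries. Plg was 0.000504 with a mean FPKM of at least 5, and Serpinc1 was 0.20 with the trace set. Leaving out single libraries gave -0.27 to 0.0018 for Fga, -0.17 to 0.0631 for F2, -0.15 to 0.0678 for Plg and -0.13 to 0.0321 for Serpinc1. In Optn-/- against saline livers, Serpinc1 was 0.0923 with the trace set and -0.16 to 0.0923 leaving out single libraries, and F7 was -0.22 to 0.11. Among other genes, with wild-type acetaminophen against saline livers, F10 was -0.108, -0.108 and -0.107 with limma and -0.121 with total counts, Cul4a was 0.25 with the trace set and -0.62 to 0.25 leaving out single libraries, and Vkorc1 was -1.32 to 0.15. Between genotypes with the trace set, Thbd was -0.0635, Stat3 -0.44 and Socs3 -1.14. F10 was 0.00265 with a mean FPKM of at least 5, and leaving out single libraries gave -0.12 to 0.0393 for F10 and -0.10 to 0.12 for Stat3. In Optn-/- against saline livers F10 was -0.117, -0.117 and -0.116 with limma, -0.125 with total counts and -0.0143 to 0.12 leaving out single libraries. Where a left-out library leaves a group with 1 sample, that sample is assumed to vary like the other groups. F3 has no value with a mean FPKM of at least 5.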

Other observations

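Vkorc1, which recycles vitamin K for the maturation of factors II, VII, IX and X, differed widely between the replicates of both treated groups, and was singled out after its values were seen. It had 137 and 49.6 FPKM in Optn-/- livers, 146 and 54.9 FPKM in wild-type acetaminophen livers and 162 and 148 FPKM in saline livers. In both treated groups the higher-numbered replicate held the low value, and the saline livers lay close together. The log2 fold change of wild-type acetaminophen over saline livers was -0.41 ± 0.61 (SE, edgeR adjusted p = 0.695).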
